A study of Saccharomyces cerevisiae with 4 samples.

Results

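The 9 genes described here encode 7 ubiquitin-specific proteases of budding yeast (DOA4, UBP1, UBP2, UBP3, UBP6, UBP14 and UBP16) and the ubiquitin-handling proteins DOA1 and CDC48. They were taken as the probe sets whose gene name or open reading frame in the deposited annotation is one of these names, which gave 1 probe set per gene, 9 of the 6016 open reading frames with a probe set of their own. Poly(A)-enriched RNA was hybridized to 4 Affymetrix YG-S98 arrays, which were cultures overexpressing KIN28 after 60 min in 200 mM LiCl and at 0 min, before the salt, and cultures overexpressing POG1 at the same times. There was 1 array per group. KIN28 encodes the kinase of the general transcription factor TFIIH, and POG1 encodes a nuclear protein that promotes the return to the cell cycle after pheromone arrest. All cells grew exponentially at 25 °C in synthetic medium with 2% glucose that lacked leucine, uracil or both, and the labels do not say which culture had which medium. The study's title concerns a mutation of RSP5, a ubiquitin ligase, but the labels do not say whether the arrayed cells carried it, nor name the strain, the plasmids or their promoters. There was no array of cells without an overexpressed gene and none of cells kept for 60 min without lithium, so lithium and time in culture cannot be told apart.

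Ubiquitin is a small protein that is joined to other proteins, singly or in chains, and marks them for the proteasome, for the vacuole or for a change of partner. Deubiquitinating enzymes cut it off again, which rescues a substrate, edits its chain, or returns ubiquitin to the free pool before the substrate is destroyed. Lithium is a toxic cation that yeast cells pump out, and stress of this kind is met in part by ubiquitin-dependent removal of membrane and damaged proteins.

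Values are the deposited signal divided by the median of all 9335 probe sets on that array, so that 1 is the median probe set; this is called the scaled signal. Probes differ in brightness, so levels were compared between arrays for 1 gene and not between genes. A floor and a negative-control level mark the background. The floor is the 20th percentile of each array, between 0.210 and 0.224, and values below it were set to it. The 95th percentile of 13 negative-control probe sets was 0.250 on the KIN28 60 min array and 0.456, 0.532 and 0.568 on the KIN28 0 min, POG1 60 min and POG1 0 min arrays. A fold against a value below the floor is given as "at least". Array medians before scaling were 54.27, 41.81, 48.01 and 60.56 in the same order, and 88.5% to 89.4% of the probe sets for an open reading frame were above the floor. The ratio of 3′ to 5′ signal for SRB4, a measure of RNA integrity, was 7.50 on the KIN28 0 min array and 3.70 to 4.65 on the other arrays. The same ratio for SPT15 was highest on the POG1 0 min array, at 3.83, and 2.79 on the KIN28 0 min array, and for ACT1 it was 1.31 to 1.92. The part of RNA integrity in the results was not tested. With 1 array per group, precision is limited by the number of arrays. The only guide to it within an array pair is that, of 103 open reading frames with 2 probe sets, 12 (11.7%) gave KIN28 culture responses more than 2-fold apart. The labels held for the overexpressed genes. KIN28 had a scaled signal of 64.9 and 71.9 at 60 and 0 min in its own culture, against 0.873 and 1.16 in the POG1 culture. POG1 had 75.1 and 58.2 in its own culture, against 0.196, below the floor, and 0.219 in the KIN28 culture.

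The first question was how the 9 genes responded to 60 min in lithium in each culture. Most changes were under 2-fold, and none of the 9 passed the test of a response shared by both cultures. UBP6, DOA1, CDC48, UBP2 and UBP14 had higher signals at 60 min than at 0 min in both cultures, UBP1 had lower signals in both, and DOA4, UBP3 and UBP16 moved in opposite directions. That test was a limma fit of culture and time to the 4 arrays over 5891 probe sets, with Benjamini-Hochberg adjustment and a threshold of 0.05. A response that differs between the cultures counts as error there, on 1 residual degree of freedom. The fit also draws each gene's variance toward a value shared by all tested probe sets, which carries 5.02 degrees of freedom. An SE or p-value is therefore not the spread of that gene alone, and genes with nearly equal responses had an SE near 0.27. The test called 0 of the 9 members, against 6.52% of all tested probe sets called higher at 60 min and 8.15% called lower. At an unadjusted p under 0.05 it had 1 of the 9, against 1892 of the 5891 probe sets (32.1%). The median response of the 9 was 0.29 (log2) in the KIN28 culture and 0.28 in the POG1 culture, beside 0.02 and -0.07 over all tested probe sets. In these bulk cultures, fewer cells with a transcript and less transcript per cell cannot be told apart.

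Past a 2-fold change in a single culture were 2 of 9 genes in the KIN28 culture, UBP16 higher and UBP3 lower, where 12.1% of all tested probe sets were at least 2-fold higher and 12.0% at least 2-fold lower. In the POG1 culture 1 of 9, UBP16, was at least 2-fold lower and none was at least 2-fold higher, where the shares of all tested probe sets were 14.7% lower and 11.5% higher. These single-culture folds have no replicate and no test.

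**Figure D1:**
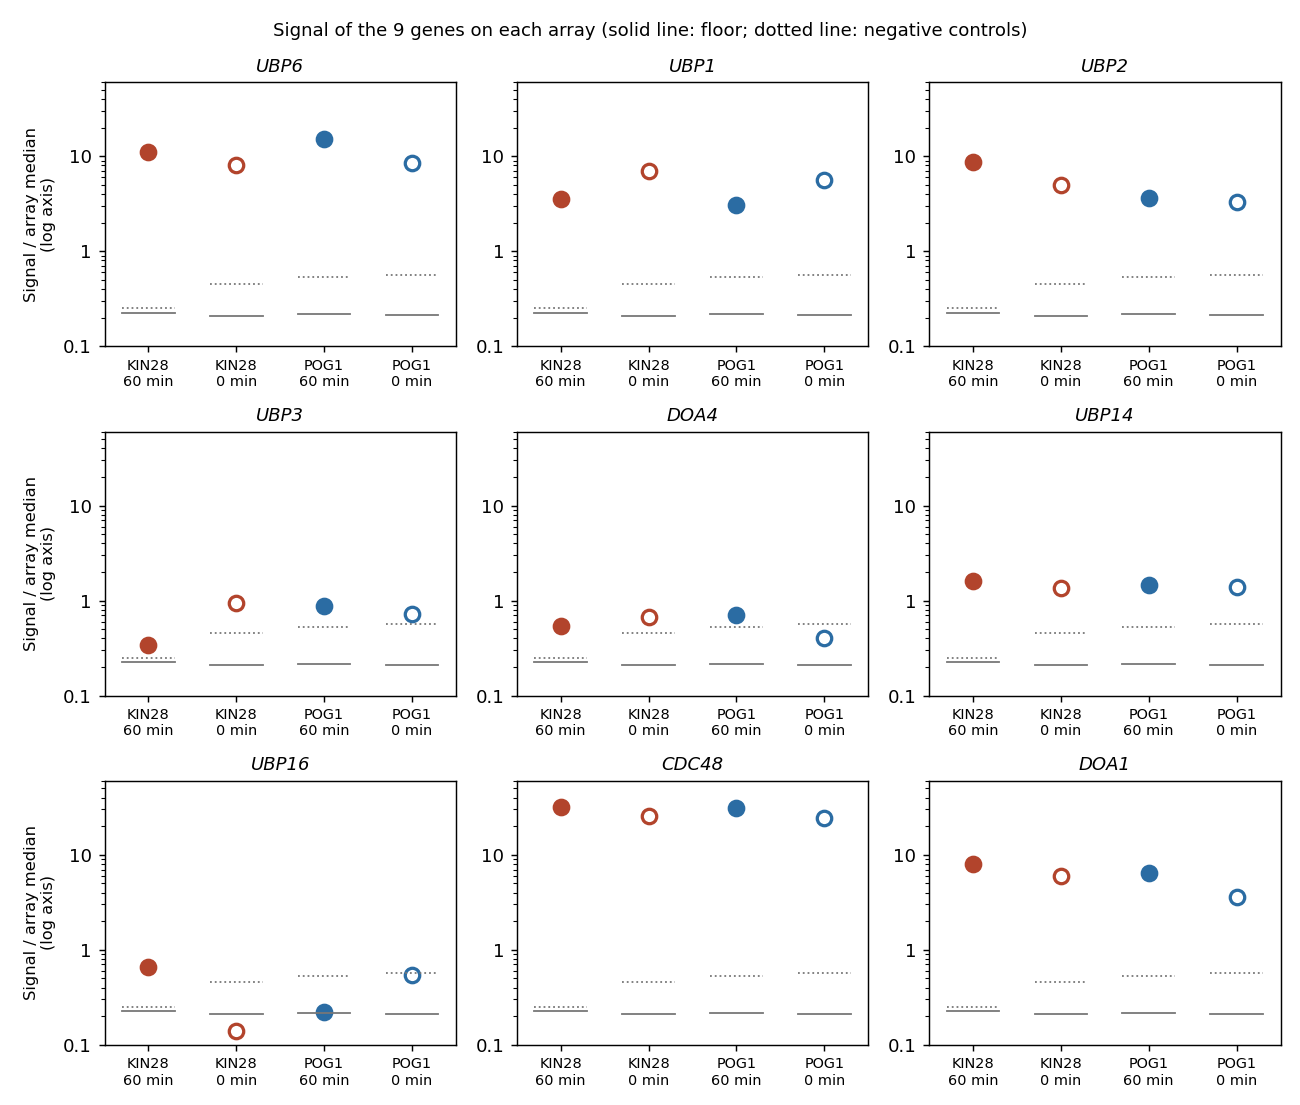
Scaled signal (signal over array median, log axis) of each of the 9 genes on the KIN28 60 min, KIN28 0 min, POG1 60 min and POG1 0 min arrays, 1 array per point, with the floor of each array as a solid line and the negative-control level as a dotted line. CDC48, UBP6, DOA1, UBP1 and UBP2 lie well above both lines on all 4 arrays, UBP14 lies just above the array median, UBP3 and DOA4 lie below it, with DOA4 on the POG1 0 min array below the negative-control level, and UBP16 is above the negative-control level only on the KIN28 60 min array.

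UBP6 encodes the deubiquitinase bound to the proteasome, which takes ubiquitin off substrates as they are degraded. It had a scaled signal of 11.1 at 60 min and 8.06 at 0 min in the KIN28 culture, and 15.2 at 60 min and 8.53 at 0 min in the POG1 culture. Both 60 min arrays were above both 0 min arrays, by 1.38-fold in the KIN28 culture and 1.78-fold in the POG1 culture. The shared response was 0.65 ± 0.28 (log2, SE), with an adjusted p of 0.174 from limma.

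CDC48 encodes the AAA ATPase that pulls ubiquitinated proteins out of complexes and membranes and hands them on for degradation. Its scaled signal was 31.6 at 60 min and 25.9 at 0 min in the KIN28 culture, and 31.0 at 60 min and 24.3 at 0 min in the POG1 culture. The 60 min arrays again stood above the 0 min arrays, but by only 1.22-fold and 1.28-fold, and the shared response of 0.32 ± 0.27 (log2, SE) had an adjusted p of 0.465 from limma. Its cofactor gene DOA1, also known as UFD3, encodes a ubiquitin-binding protein that cells need to keep their free ubiquitin. DOA1 had a scaled signal of 7.94 at 60 min and 5.94 at 0 min in the KIN28 culture, and 6.49 at 60 min and 3.57 at 0 min in the POG1 culture. The lowest 60 min value was above the highest 0 min value, the folds were 1.34 and 1.82, and the shared response was 0.64 ± 0.28 (log2, SE; limma adjusted p = 0.183).

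UBP14 encodes the enzyme that takes apart free ubiquitin chains left after their substrate is gone. It was the steadiest of the 9 in scaled signal, with 1.61 at 60 min and 1.36 at 0 min in the KIN28 culture and 1.45 at 60 min and 1.37 at 0 min in the POG1 culture. Its shared response was 0.16 ± 0.27 (log2, SE; limma adjusted p = 0.723). The POG1 culture response of UBP14 was 0.08 (log2) and takes the other sign with no scaling or with scaling by the hybridization controls.

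UBP1 encodes a ubiquitin-specific protease that cleaves ubiquitin fusions, and it was the member with the lowest unadjusted p for the shared response. Its scaled signal was 3.56 at 60 min and 7.04 at 0 min in the KIN28 culture, and 3.06 at 60 min and 5.64 at 0 min in the POG1 culture. The 60 min and 0 min arrays did not overlap, and the decrease was nearly equal in the cultures, 1.97-fold lower with KIN28 and 1.84-fold lower with POG1. The shared response was -0.93 ± 0.27 (log2, SE), lower in 2 of 2 cultures, with an unadjusted p of 0.0138 and an adjusted p of 0.0714 from limma. Over 12 alternative settings of the same fit the adjusted p ranged between 0.0196 and 0.494, and it was under the threshold in 4 of them.

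UBP2 encodes the deubiquitinase that works against the ligase Rsp5, to which it is bound through Rup1. It had a scaled signal of 8.61 at 60 min and 4.93 at 0 min in the KIN28 culture, and 3.65 at 60 min and 3.27 at 0 min in the POG1 culture. The KIN28 60 min array stood alone at the top, and the KIN28 0 min array was also above both POG1 arrays. The response was 1.75-fold in the KIN28 culture and 1.11-fold in the POG1 culture, where the sign changes with no scaling or with scaling by the hybridization controls. The shared response was 0.48 ± 0.30 (log2, SE; limma adjusted p = 0.322). RSP5 itself had a scaled signal of 5.97 at 60 min and 4.32 at 0 min in the KIN28 culture, and 5.33 at 60 min and 3.66 at 0 min in the POG1 culture, a shared response of 0.51 ± 0.27 (log2, SE; limma adjusted p = 0.256).

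UBP3 encodes a deubiquitinase that acts with Bre5 on vesicle coat proteins and in the degradation of ribosomes by autophagy. Its scaled signal was 0.336 at 60 min and 0.951 at 0 min in the KIN28 culture, and 0.875 at 60 min and 0.719 at 0 min in the POG1 culture. The KIN28 60 min array was the low one, and the other arrays lay close together. That made UBP3 2.83-fold lower at 60 min in the KIN28 culture and 1.22-fold higher in the POG1 culture, the second of these with a sign that turns with no scaling or with scaling by the hybridization controls. With the floor raised to the 40th percentile the KIN28 culture response was -0.53 (log2) in place of -1.50, since the KIN28 60 min value then lies below the floor. The shared response was -0.61 ± 0.45 (log2, SE; limma adjusted p = 0.406).

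DOA4 encodes the deubiquitinase that recovers ubiquitin from membrane proteins at the endosome before they enter the vacuole. It had a scaled signal of 0.542 at 60 min and 0.677 at 0 min in the KIN28 culture, and 0.711 at 60 min and 0.401 at 0 min in the POG1 culture. The POG1 0 min array was the lowest and lay below its negative-control level. DOA4 was 1.25-fold lower at 60 min in the KIN28 culture, with a sign that turns with no scaling or with scaling by the hybridization controls, and 1.77-fold higher in the POG1 culture. Counted from the negative-control level, the POG1 culture difference was 1.25-fold. The shared response was 0.25 ± 0.36 (log2, SE; limma adjusted p = 0.673).

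UBP16 encodes a deubiquitinase of the mitochondrial outer membrane. Its scaled signal was 0.662 at 60 min and 0.141, below the floor, at 0 min in the KIN28 culture, and 0.222 at 60 min and 0.548 at 0 min in the POG1 culture. Only the KIN28 60 min array was above its negative-control level. UBP16 was at least 3.15-fold higher at 60 min in the KIN28 culture and 2.47-fold lower in the POG1 culture. Counted from the negative-control level, the KIN28 culture change became 1.45-fold. In the POG1 culture both values were below their negative-control levels, so no change can be counted from those levels. The shared response, which depends on the floor, was 0.18 ± 0.66 (log2, SE; limma adjusted p = 0.885).

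**Figure D2:**
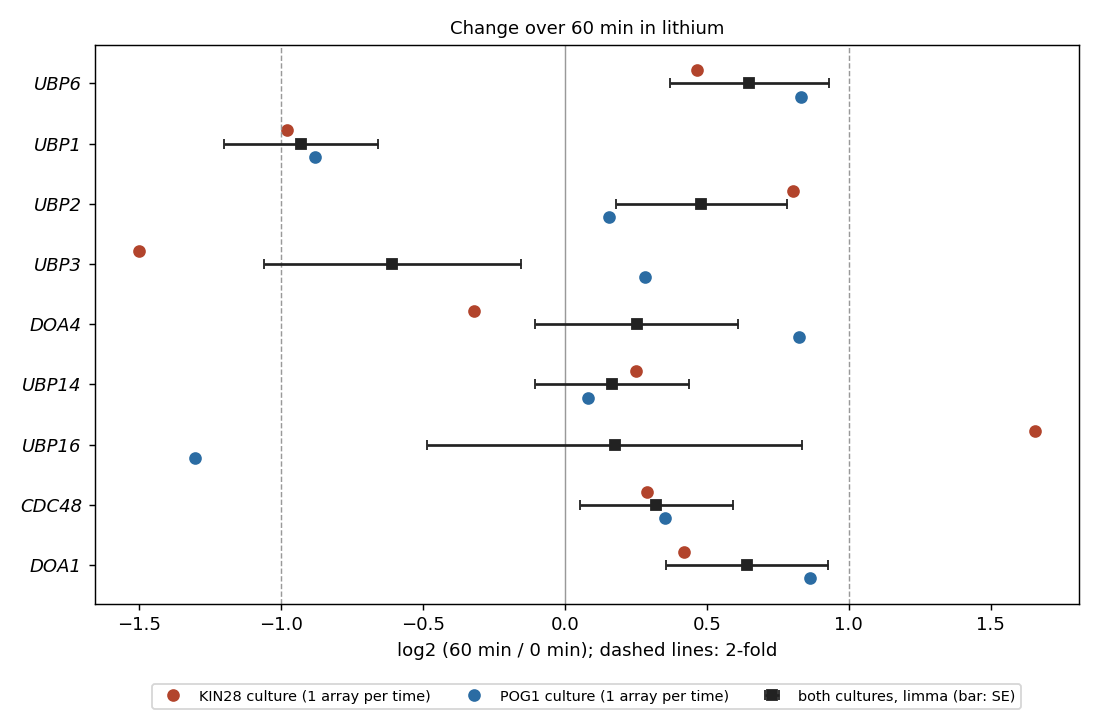
Change over 60 min in lithium (log2 of 60 min over 0 min) for each of the 9 genes, with 1 point for the KIN28 culture, 1 for the POG1 culture and a square for the limma estimate over both (bar, SE), and dashed lines at 2-fold. UBP1 is near -0.9 in both cultures, while the points of UBP16, UBP3 and DOA4 lie on opposite sides of 0; the UBP16 points use the floor for the KIN28 0 min array.

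The second question was whether the 9 genes differed between the KIN28 and POG1 cultures. At 0 min 1 of 9 differed at least 2-fold, UBP16, at least 2.60-fold lower in the KIN28 culture, where 8.04% of all tested probe sets differed by that much in either direction. Both UBP16 values at 0 min were below their negative-control levels, so no difference can be counted from those levels. At 60 min 3 of 9 did, where 11.0% of all tested probe sets did. UBP2 was 2.36-fold higher in the KIN28 culture at 60 min, UBP16 was 2.99-fold higher and UBP3 was 2.60-fold lower. In all 6 scalings UBP2 at 60 min kept its sign and was at least 2-fold higher, with log2 differences between 1.06 and, with scaling by the hybridization controls, 2.02, where the median of all tested probe sets was 0.92. UBP3 at 60 min was -1.38 (log2) but -0.60 with scaling by the hybridization controls and -0.41 with the floor at the 40th percentile. UBP16 at 60 min was 1.25-fold higher when counted from the negative-control levels.

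Over both times, UBP2 had the largest culture difference of the 9, 0.92 ± 0.30 (log2, SE), higher in the KIN28 culture at 2 of 2 times. Its unadjusted p was 0.0226 and its adjusted p 0.478 in the limma fit, so it did not pass. DOA1 followed with 0.51 ± 0.28 (log2, SE; limma adjusted p = 0.562), and stood above the POG1 culture by 1.22-fold at 60 min and by 1.66-fold at 0 min. The limma fit called 0 of the 9 members (1 of 9 at an unadjusted p under 0.05), where it called 2 of 5891 probe sets (0.0340%), KIN28 and POG1 themselves, and 574 at an unadjusted p under 0.05.

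**Figure D3:**
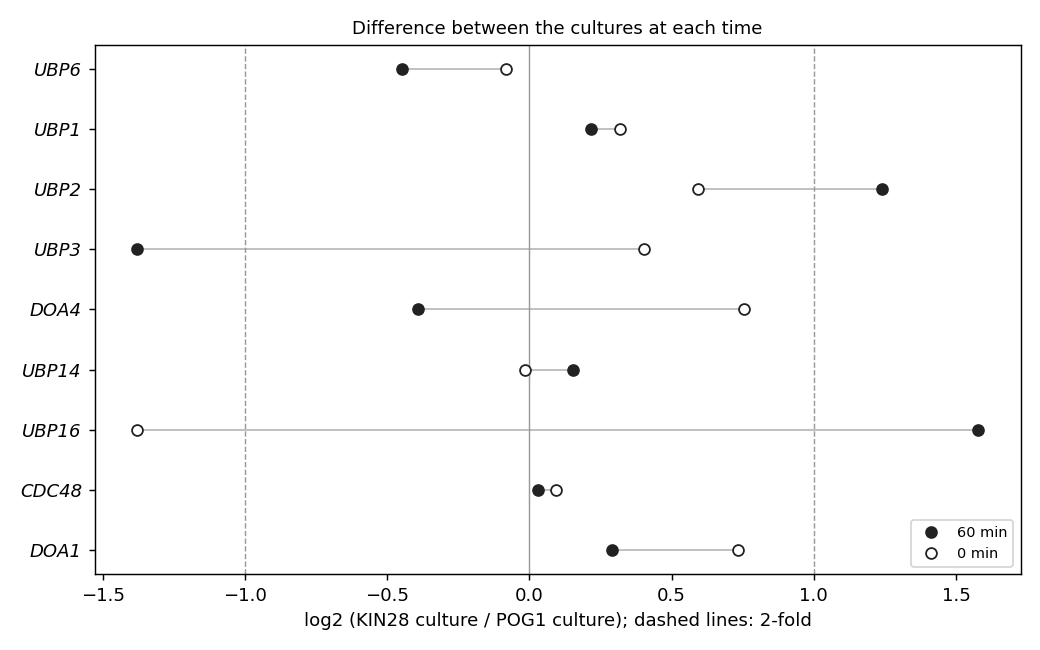
Difference between the cultures (log2 of KIN28 over POG1) for each of the 9 genes at 60 min (filled) and at 0 min (open), 1 array per culture and time, with dashed lines at 2-fold. UBP2 is above 0 at both times and past 2-fold at 60 min, CDC48 and UBP14 lie near 0, and UBP16, UBP3 and DOA4 change sides between the times when scaled by the array median.

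The third question was whether the lithium response itself differed between the cultures. The difference of the responses, KIN28 minus POG1, was at least 2-fold for 3 of 9 genes, where 15.6% of all tested probe sets reached that size in either direction. It was 2.96 (log2) for UBP16, -1.78 for UBP3 and -1.15 for DOA4. Each of these rests on at least 1 array at or close to the background levels. For UBP16 these are the KIN28 0 min array and both POG1 arrays, all below their negative-control levels, for UBP3 the KIN28 60 min array, and for DOA4 the POG1 0 min array. Of 99 open reading frames with 2 probe sets, 19 (19.2%) gave differences of responses more than 2-fold apart. The other genes were between -0.44 and 0.65, and UBP2, DOA1, UBP6, UBP1 and CDC48 among them lie well above the background on every array. UBP2, at 0.65, was 1.36 with no scaling and 1.43 with scaling by the hybridization controls, which put the median of all tested probe sets at 0.82 and 0.89 in place of 0.11. DOA4 was -0.43 and -0.36 under these scalings and -0.17 with the floor at the 40th percentile, which also gave -0.81 for UBP3. UBP16 has no value with the floor at the 40th percentile or at the negative-control level, since both POG1 arrays are then below the floor. The difference is the only residual of the design, so it has no test.

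Genes that work with these enzymes were set beside them, in lists written with earlier results of these data known. The lists overlap. OTU1 is among both the cofactors of Cdc48 and the other deubiquitinating enzymes, UBX2 among the cofactors and the genes for degradation at the endoplasmic reticulum, and BRO1 among the partners and the endosomal sorting genes. Of the 12 cofactors of Cdc48, 5 rose at 60 min in the limma fit over both cultures and none fell, where 6.52% of all tested probe sets were called higher and 8.15% lower. Their median shared response was 0.97 (log2), beside 0.25 for the 9 genes and -0.01 over all tested probe sets. At an unadjusted p under 0.05 in the limma fit there were 7 of the 12 (58.3%), against 32.1% of all tested probe sets. NPL4 and UFD1 encode the pair that brings Cdc48 to ubiquitinated substrates. NPL4 had a scaled signal of 7.35 at 60 min and 2.15 at 0 min in the KIN28 culture, and 6.27 at 60 min and 1.56 at 0 min in the POG1 culture, a shared response of 1.89 ± 0.27 (log2, SE; adjusted p = 0.0122). UFD1 had 3.31 at 60 min and 0.978 at 0 min in the KIN28 culture, and 3.34 at 60 min and 1.56 at 0 min in the POG1 culture, a shared response of 1.43 ± 0.30 (adjusted p = 0.0310). In both genes each 60 min array stood above each 0 min array.

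UBX5 and UBX6 encode Cdc48 cofactors with a UBX domain. The shared response was 1.75 ± 0.29 (log2, SE; limma adjusted p = 0.0165) for UBX5 and 1.27 ± 0.27 (limma adjusted p = 0.0315) for UBX6, and both were more than 2-fold higher in both cultures. UBX3, named because it is the fifth call in the list and chosen after its values were seen, had 1.18 ± 0.29 (limma adjusted p = 0.0448). Over 12 alternatives NPL4 passed in 11, UBX5 in 10, and UFD1 and UBX6 in 8 each. The call of UBX3 was not followed over the alternatives. CDC48 itself did not pass in any of the 12. DOA1, the cofactor among the 9, did not pass in any of them either.

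Among the genes that encode ubiquitin, UBI4, the stress-inducible gene for a head-to-tail chain of ubiquitin, rose in both cultures. Its scaled signal was 42.1 at 60 min and 10.3 at 0 min in the KIN28 culture, and 48.4 at 60 min and 7.78 at 0 min in the POG1 culture. The 60 min arrays were 4.09-fold and 6.22-fold above the 0 min arrays, a shared response of 2.33 ± 0.30 (log2, SE; limma adjusted p = 0.00951), past the threshold in 11 of 12 alternatives. RPS31, which encodes ubiquitin fused to a ribosomal protein, had 66.7 at 60 min and 172 at 0 min in the KIN28 culture, and 81.1 at 60 min and 114 at 0 min in the POG1 culture, and its shared response of -0.93 ± 0.32 had a limma adjusted p of 0.110. The other ubiquitin fusion genes, RPL40A and RPL40B, share probe sets and were left out.

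The list of other deubiquitinating enzymes held 15 genes, among them RRI1, whose product removes Rub1 and not ubiquitin. In the limma fit 1 of the 15, RRI1, rose and 2 fell, beside 6.52% higher and 8.15% lower over all tested probe sets. At an unadjusted p under 0.05 in the limma fit there were 7 of the 15 (46.7%), against 32.1% of all tested probe sets. The median shared response was 0.52 (log2). UBP10, a nuclear enzyme that acts on histone H2B and in silencing, fell. It had a scaled signal of 3.30 at 60 min and 10.6 at 0 min in the KIN28 culture, and 4.33 at 60 min and 9.11 at 0 min in the POG1 culture, a shared response of -1.38 ± 0.30 (log2, SE; adjusted p = 0.0328). OTU2, also lower and chosen after its values were seen, had a shared response of -1.66 ± 0.40 (adjusted p = 0.0435). It was 1.92-fold lower in the KIN28 culture and 5.22-fold lower in the POG1 culture, or 4.21-fold when counted from the negative-control level, since its POG1 60 min value of 0.429 was below that level. RRI1, the subunit of the COP9 signalosome that removes Rub1 from cullins, rose, with 1.40 ± 0.29 (adjusted p = 0.0293), but of its 4 arrays only the KIN28 60 min value of 0.662 was above the negative-control level. RPN11, the deubiquitinase of the proteasome lid, had 24.3 at 60 min and 11.9 at 0 min in the KIN28 culture, and 24.5 at 60 min and 11.9 at 0 min in the POG1 culture. Its response was 2.04-fold and 2.05-fold, with an adjusted p of 0.0553 that did not pass. UBP10 passed in 6 of 12 alternatives, RRI1 in 5 of 11 and RPN11 in 4 of 12. The call of OTU2 was not followed over the alternatives.

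Partners and regulators of the 9 enzymes gave 1 call among 6 genes, where 6.52% of all tested probe sets were called higher and 8.15% lower. At an unadjusted p under 0.05 in the limma fit it was also 1 of the 6 (16.7%), against 32.1% of all tested probe sets. RFU1, which encodes an inhibitor of Doa4, fell. It had a scaled signal of 0.576 at 60 min and 1.25 at 0 min in the KIN28 culture, and 0.0542, below the floor, at 60 min and 0.902 at 0 min in the POG1 culture. RFU1 was 2.17-fold lower at 60 min in the KIN28 culture and at least 4.15-fold lower in the POG1 culture, or at least 1.70-fold lower when counted from the negative-control level. Its fitted shared response of -1.59 ± 0.33 (log2, SE; adjusted p = 0.0301), which depends on the floor, passed in 6 of 11 alternatives. BRE5, the partner of Ubp3, had a shared response of 0.10 ± 0.27, and RUP1, the partner of Ubp2, one of 0.29 ± 0.30, neither of which passed. BRO1, which recruits Doa4 to endosomes, had 0.68 ± 0.30, and RPN1, the proteasome subunit that binds Ubp6, had 0.49 ± 0.29, neither past the threshold.

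No gene passed in the limma fit in the lists for endosomal sorting and for degradation at the endoplasmic reticulum, pathways in which members of the 9 act. Of the 18 probe sets for the endosomal sorting (ESCRT) genes, where Doa4 acts, 0 passed and 3 had an unadjusted p under 0.05, a lower share than the 32.1% of all tested probe sets, and the median shared response was 0.21 (log2). STP22, an ESCRT-I subunit, had 0.76 ± 0.27 (SE; limma adjusted p = 0.116) on 1 of its 2 probe sets and 0.43 ± 0.27 (limma adjusted p = 0.323) on the other. SNF8, an ESCRT-II subunit, had -0.75 ± 0.29 (limma adjusted p = 0.144). Of the 11 probe sets for endoplasmic reticulum associated degradation, where Cdc48 extracts substrates, 0 passed and 2 had an unadjusted p under 0.05, also a lower share than over all tested probe sets, with a median of 0.24. HRD1, the ubiquitin ligase of that pathway, had 0.81 ± 0.27 (limma adjusted p = 0.102). DER1, a membrane subunit of the same pathway, had -0.48 ± 0.27 on 1 probe set and 0.24 ± 0.29 on the other, which differ in sign.

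**Figure D4:**
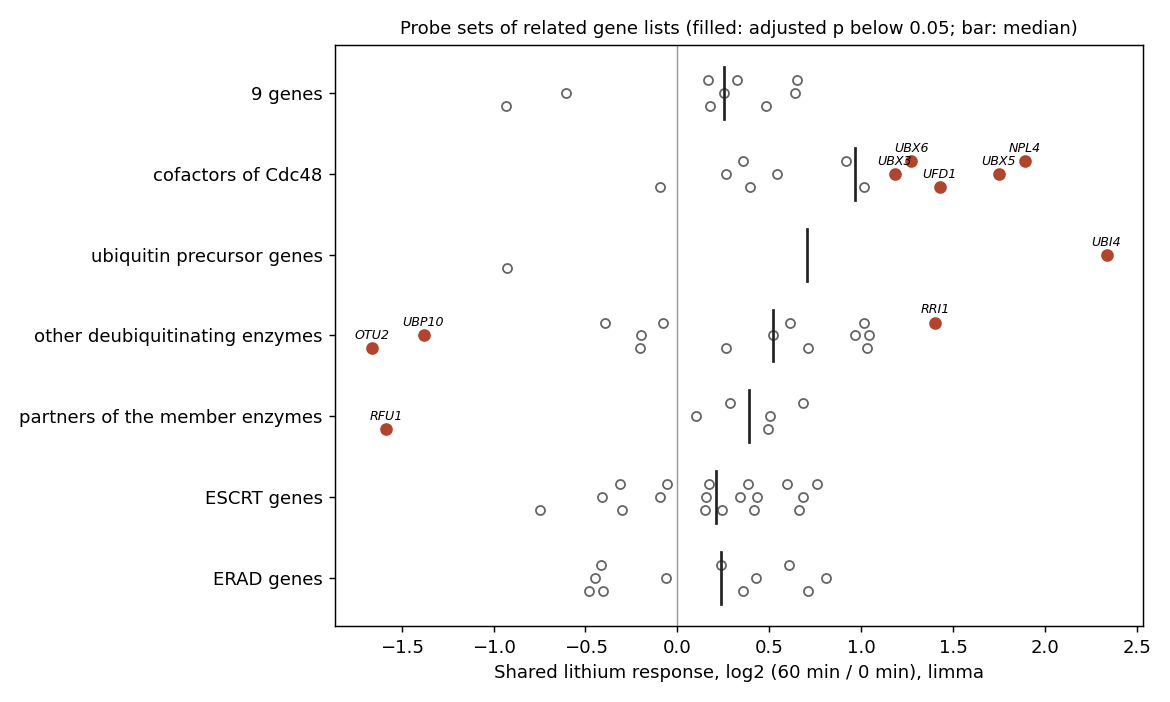
Shared lithium response (log2 of 60 min over 0 min, limma over both cultures) of every probe set of the 9 genes and of 6 related lists, with filled points at an adjusted p below 0.05 and a bar at each list's median. Of the cofactors of Cdc48, 5 of 12 are filled and all of these are above 0, while none of the 9 genes is filled. Over all tested probe sets 6.52% were called higher and 8.15% lower.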

How the data were processed

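For each probe set the 4 sample files give a linear intensity and a ratio, both as deposited, and the ratio equals the intensity over the array median to rounding. The authors' summary software and genome build are not given in the sources used here, so no coordinates are printed. The series-wide value table served as an alternative. The intensity was divided by the array median, floored at the 20th percentile and taken to log2. A probe set had 1 open reading frame when its description opens with it and the platform table does not list several genes, which left 6169 probe sets (328 listing several genes were left out), tested when above the floor on at least 1 array compared. All 9 members matched RefSeq by locus. The limma fit (version 3.58.1, R 4.3.3, lmFit and eBayes) took culture and time as additive terms. It was also run on simulated data with 1 noise level for all genes and no response that differed between cultures. That run cannot show how the fit performs where noise or response differs, as in these arrays. Adjusted p-values are by Benjamini-Hochberg over the 5891 tested probe sets, or over those each alternative tested. The p-values measure only the spread between these arrays, with each gene's variance drawn toward that of all tested probe sets. Whether cultures were separate is not stated.

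Named genes were the 9 members, KIN28, POG1 and RSP5, and from each related list up to 4 genes at least 2-fold changed the same way in both cultures, or else the largest mean response in each direction. Where a list had fewer, all were named, and other genes given by name are list members that were counted or partners of a member. The members and lists were chosen with earlier results of these data known. Alternatives were 5 other scalings, other floors and filters, the value table, all probe sets, 1.5-fold and 3-fold thresholds, a mean-variance trend and leaving out a culture or a time. The hybridization-control scaling and the negative-control floor were added after the data were seen. Promoter and protein sequences were not analysed here.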

Additional observations from a re-analysis of the deposited data

Results flagged for a closer look

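In 3 of the 9 genes the response to lithium had opposite signs in the KIN28 and POG1 cultures, and the difference was not tested, since it is the design's only residual. The share of all tested probe sets with opposite signs was not computed, so the count cannot be called particular to the 9. The median response over all tested probe sets was near 0 in both cultures, at 0.02 and -0.07 (log2). For UBP16 the difference of responses, KIN28 minus POG1, was 2.96 (log2), from 1.65 in the KIN28 culture and -1.30 in the POG1 culture. The KIN28 0 min array was below the floor and both POG1 arrays were below their negative-control levels, so no POG1 change can be counted from those levels. For UBP3 it was -1.78, from -1.50 in the KIN28 culture and 0.28 in the POG1 culture, and the POG1 response takes the other sign with no scaling or with hybridization-control scaling. For DOA4 it was -1.15, from -0.32 in the KIN28 culture and 0.83 in the POG1 culture, and here the KIN28 response takes the other sign under the same scalings.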

How the results depend on the processing

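The sign of the shared lithium response of all 9 genes was kept in every setting of the limma fit, but leaving out 1 culture turned it for DOA4 (-0.32 without POG1, 0.83 without KIN28), UBP3 (-1.50 without POG1, 0.28 without KIN28) and UBP16 (1.65 without POG1, -1.30 without KIN28). Hybridization-control scaling put the median of all probe sets at 0.47 (log2) in the KIN28 response and -0.40 in the POG1 response, in place of 0.02 and -0.07. The count of members past 2-fold, given here as the KIN28 response, the POG1 response, cultures at 0 min, cultures at 60 min and the difference, was 2, 1, 1, 3 and 3. It became 0, 0, 0, 1 and 0 with the floor at the 40th percentile, and at 3-fold it was 1, 0, 0 and 0 in the first 4. With the negative-control floor it was 1, 0 and 0 in the first 3 and 1 in the difference. At 1.5-fold it was 4, 5 and 4 in the first 3. Shares of all probe sets at 1.5-fold and 3-fold were not computed, so the counts at these thresholds have no background beside them. Quantile normalization, 75th percentile scaling, no scaling and hybridization-control scaling each gave 3 in the KIN28 response. UBP1, lower, joined UBP16 and UBP3 in the first 2 of these scalings, and UBP2, higher, joined them in the last 2. All probe sets past 2-fold numbered 1359, 1378, 1679 and 1822 in that order, against 1381 in the main setting. Requiring signal above the floor on every array gave 1 in the KIN28 response and 0 at 0 min. No scaling and hybridization-control scaling each gave 2 in the POG1 response, where UBP1 joined UBP16.

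Members called for the shared response numbered 1, UBP1, with the 40th percentile floor, the filter on every array, a mean-variance trend or the negative-control floor. With the 40th percentile floor, 1369 of 5020 tested probe sets were called. For the other settings just named no total is given beside the count, so UBP1 cannot be set against all probe sets there. In the main setting, where no member was called, the shared response called 864 of all tested probe sets. That compares with 480 with no scaling, 399 with hybridization-control scaling, 1369 with the 40th percentile floor, 286 over all probe sets that are not controls and 0 with no floor. For culture over both times the calls were 2, against 4 with no scaling or the negative-control floor, 1 with the filter on every array and 0 with no floor.

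Of all probe sets past 2-fold, the POG1 response had 1502, against 2296 when every probe set that is not a control was tested. At 0 min 458 differed between cultures, against 1038 with no scaling, 191 with the 40th percentile floor, 225 with the negative-control floor and 945 over all probe sets. At 60 min it was 632, against 289 with the 40th percentile floor, 2570 with hybridization-control scaling and 1117 over all probe sets. The difference gave 866, against 2189 with no scaling, 2422 with hybridization-control scaling, 407 with the 40th percentile floor, 551 with the negative-control floor and 1466 over all probe sets.

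Culture differences over both times that changed sign were all small. DOA4 became -0.0278 with the 40th percentile floor and -0.0682 with the negative-control floor. UBP6 became 0.13 with hybridization-control scaling. UBP14 became -0.0124 with the common-probe median, -0.0242 with the 75th percentile and -0.11 with no scaling. CDC48 became -0.0196, -0.0314 and -0.12 under those 3 settings. UBP16 became -0.0797 with no scaling, -0.19 with no floor and -0.0070 with the 40th percentile floor, which also gave -0.0170 for its 60 min culture difference. The causes were not tested. Each group has 1 array, so there was no replicate number to block on beyond culture and time.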
